A study of Mus musculus with 9 samples.

Results

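The livers of male mouse offspring from in vitro fertilized (IVF) embryos that had been frozen before transfer (FET-chow, n = 3) were compared with the livers of offspring from IVF embryos transferred fresh (IVF-chow, n = 3), to ask what the freezing and thawing of the embryo adds to IVF itself. Genes whose FPKM averaged 1 or more across the 6 mice entered the comparison, which gave 6378 of the 55335 genes in the table. FPKM are sequenced fragments scaled to the length of the gene and to the size of the library. Of these 6378 genes, 5279 were protein-coding and 545 were processed pseudogenes. The mean FPKM was 1.0 for Khdrbs1, just inside this limit, and 0.9998 for Sparcl1, just outside it.

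All mice were labelled B6D2F2, which are the offspring of B6D2F1/J parents and so carry mixed C57BL/6 and DBA/2 alleles. They ate normal chow, and the liver was taken at 20 weeks of age after a fast of 4 h. In both groups, embryos at the 2-cell stage were transferred to pseudopregnant ICR females, either directly or after slow freezing, storage in liquid nitrogen, thawing and a further culture step, so that freezing, thawing and that culture cannot be told apart here. A group of 3 naturally conceived chow-fed mice (NC-chow) gave background values and entered the estimate of the spread. The labels number the IVF-chow and FET-chow mice 2, 3 and 4 and the NC-chow mice 1, 5 and 6, and values are given in that order throughout. The labels do not say which mice shared a litter, and p-values measure only the spread between these mice.

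Liver RNA comes mostly from hepatocytes, which secrete plasma proteins and lipoproteins, clear drugs and hormones through cytochrome P450 and conjugating enzymes, and switch between storing and releasing fuel under insulin, glucagon, glucocorticoids and growth hormone. The many secreted proteins fold in the endoplasmic reticulum (ER). When folding falls behind, the unfolded protein response raises chaperones such as BiP, the product of Hspa5. Immediate early and stress genes such as Fos, Egr1 and Gadd45g respond to hormones, fasting, injury and handling within minutes to hours.

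The libraries differed in depth and in make-up. The fragments mapped per library, inferred from the smallest increments among low FPKM values and rounded to 3 digits, were 8420000, 4490000 and 3890000 in IVF-chow and 2020000, 2810000 and 2930000 in FET-chow, so every FET-chow library was smaller than every IVF-chow library. Ribosomal RNA-like entries took 61.9, 19.3 and 18.1% of all FPKM in IVF-chow and 41.8, 29.0 and 31.0% in FET-chow. The FPKM summed over nuclear protein-coding genes were 39169.6, 109302 and 230355 in IVF-chow and 91345, 129279.5 and 45387 in FET-chow. The sums were lowest in IVF-chow mouse 2 and FET-chow mouse 4 and highest in IVF-chow mouse 4. The tests, the list medians and the sums over near-copies of a gene are therefore given on the deposited FPKM and again after median-ratio scaling, which divides each library by its median ratio to the average library. Of the genes tested, 1180, 304 and 877 were listed at 0 in FET-chow mice 2, 3 and 4 and 324, 223 and 191 in IVF-chow mice 2, 3 and 4. Pgk1 and Pgam1, glycolytic genes that every cell uses, were among those at 0 in FET-chow mouse 2, so a value of 0 means only that a gene was listed at 0.

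Of the 6378 genes, 12 passed the test in FET-chow against IVF-chow (limma on log2(FPKM + 1), Benjamini-Hochberg adjusted p under 0.05, 0.188% of the genes tested). FPKM of 5 genes rose (0.0784%) and FPKM of 7 genes fell (0.11%). Gadd45g, Ugt1a9, Ugt1a7c, Tmem254b and Sssca1 were the protein-coding genes among them, and all of these fell. After median-ratio scaling, 2 genes rose (0.0314%) and 5 fell (0.0784%). The Benjamini-Hochberg count depended on single mice: it was 0 without IVF-chow mouse 3, IVF-chow mouse 4, FET-chow mouse 2 or FET-chow mouse 3, 2 (Gm23386 and Gm14861) without FET-chow mouse 4, and 10, all lower, without IVF-chow mouse 2. At an unadjusted p under 0.05, FPKM were higher in FET-chow for 72 genes (1.13%) and lower for 184 (2.88%). Across all genes tested, the log2 fold change had a median of -0.18 as deposited and -0.084 scaled, and the deposited median lay between -0.67 and 0.20 when 1 mouse was left out. Of the 28 gene lists described here, 22 had a deposited median that changed sign when some mouse was left out, 20 of them without IVF-chow mouse 4, 10 without FET-chow mouse 4 and 2 without IVF-chow mouse 2.

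**Figure D1:**
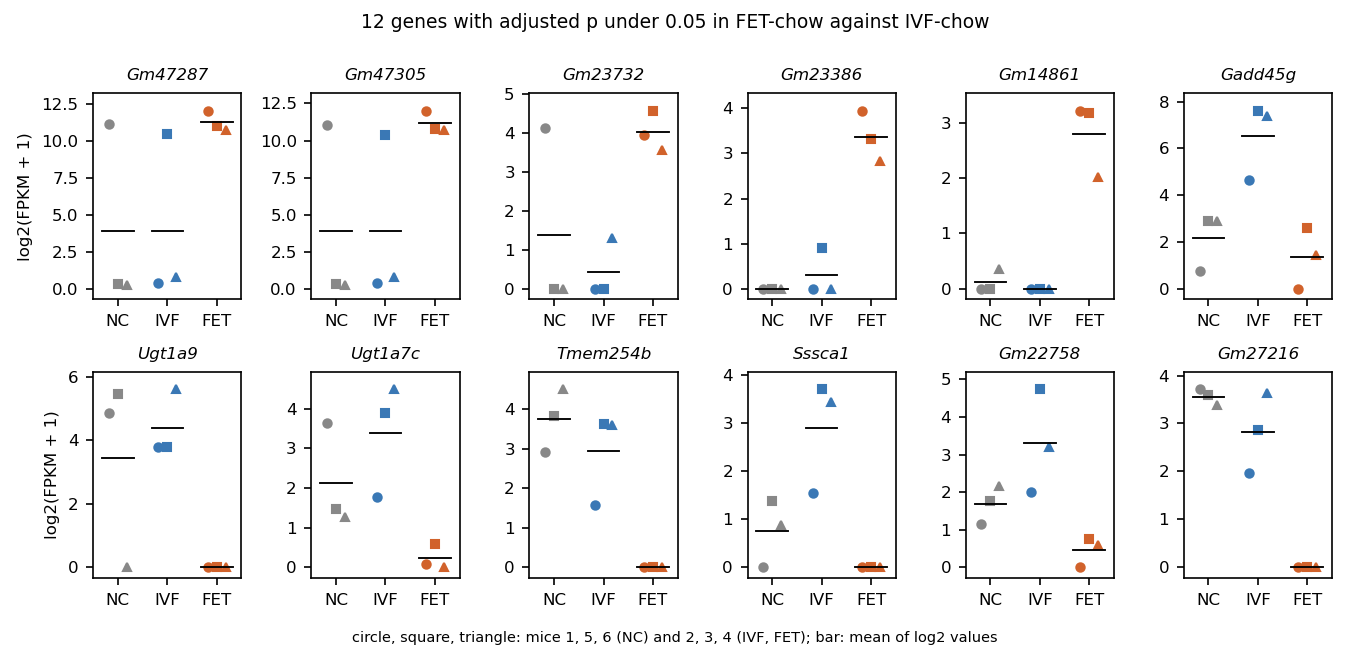
The 12 genes that passed the test, with log2(FPKM + 1) on the vertical axis of each panel and the 3 groups on the horizontal axis. Each point is 1 mouse and the bar is the mean of the group. The 5 genes in the first panels lie higher in all 3 FET-chow mice, although IVF-chow mouse 3 reached 1428 FPKM for Gm47287, and the other 7 lie lower in all 3 FET-chow mice.

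Gadd45g, a stress sensor that activates the p38 and JNK kinase pathways and responds to DNA damage and growth arrest signals, fell the most. Its FPKM were 24.3, 194 and 165 in IVF-chow, 0, 5.09 and 1.74 in FET-chow and 0.692, 6.49 and 6.5 in NC-chow. All 3 IVF-chow mice lay above all FET-chow and NC-chow mice, and the FET-chow and NC-chow mice overlapped. The log2 fold change in FET-chow against IVF-chow was -5.19 ± 0.89 (SE, limma, Benjamini-Hochberg adjusted p = 0.000791), and -5.05 after scaling (adjusted p = 0.0170). A single fragment was worth about 0.422, 0.303 and 0.291 FPKM of Gadd45g in the FET-chow mice, so even the highest FET-chow value rests on few fragments. The gene, at chr13:51846678-51848468 in GRCm38, passed the threshold in 13 of 23 alternative analyses, whose adjusted p-values ranged from 0.000148 to 0.716, and it did not pass without IVF-chow mouse 3 (adjusted p = 0.318), IVF-chow mouse 4 (0.463) or any FET-chow mouse (0.149, 0.176 and 0.167).

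Gadd45g belongs to a list of 34 immediate early and stress genes, of which 26 were tested. In this list, only Gadd45g passed the test on either scale. Genes are called apart where all 3 FET-chow mice lay on one side of all 3 IVF-chow mice. After scaling, 6 members were apart and lower in FET-chow and 1 was apart and higher, where 8.06% and 4.66% of all genes tested were. As deposited, 4 and 1 were, against 1.88% and 1.3% of all genes. The median log2 fold change of the list was -0.73 as deposited and -0.47 scaled, against -0.18 and -0.084 over all genes. Averaged over the list, the log2(scaled FPKM + 1) was 1.98, 2.49 and 2.37 in IVF-chow, 0.94, 1.55 and 2.0 in FET-chow and 1.49, 1.85 and 1.69 in NC-chow. FET-chow mouse 4 lay level with IVF-chow mouse 2, so the groups overlapped, and the NC-chow mice lay within the FET-chow range.

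Members of the list other than Gadd45g did not pass the test, and 5 of the 26 had a positive log2 fold change on the deposited scale, against 36.6% of all genes. Egr1, a zinc finger factor switched on by growth factors, had 1.27, 18.6 and 26.6 FPKM in IVF-chow and 0, 0.866 and 2.14 in FET-chow, with a log2 fold change of -2.57 as deposited and -2.24 scaled. Fos, which pairs with Jun to form AP-1, had 0.637, 5.06 and 7.13 FPKM in IVF-chow and 0, 0.616 and 0.295 in FET-chow (-1.76 and -1.52). Jun had 1.20, 3.75 and 7.72 and 0, 1.23 and 0.321 FPKM (-1.65 and -1.51). Fos did not overlap between the groups on either scale, Jun did not overlap after scaling, and Egr1 overlapped through IVF-chow mouse 2. Myc, a driver of growth and ribosome production, had 0.987, 1.64 and 5.51 FPKM in IVF-chow and was listed at 0 in FET-chow mice 2 and 4, with 0.133 in mouse 3. The cochaperone Dnajb1, which is induced with Hsp70, had 2.78, 35.4 and 72.3 FPKM in IVF-chow and 2.02, 1.08 and 3.16 in FET-chow (-2.86 and -2.65), and its groups were apart after scaling. The unadjusted limma p-values of these 5 genes after scaling were between 0.00123 for Dnajb1 and 0.00501 for Jun. As deposited they were 0.00847 for Fos and 0.0147 for Myc in limma, with Benjamini-Hochberg adjusted p-values of 0.874 and 0.997. After scaling, the adjusted limma p-value of Fos and of Myc was 0.239.

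Outside the list, Plk3, a polo-like kinase of the stress response, had 8.70, 38.2 and 142 FPKM in IVF-chow and 6.56, 5.78 and 2.18 in FET-chow, and it did not pass the test (-2.80 and -2.73, limma, Benjamini-Hochberg adjusted p = 0.701 and 0.101). All its FET-chow values lay below all IVF-chow values, and the NC-chow values of 10.3, 37.2 and 39.2 lay above those of FET-chow. The one member of the list that was higher in every FET-chow mouse was Txnip, the thioredoxin-binding arrestin that restrains glucose uptake and responds to glucose. Its FPKM were 0.524, 0.568 and 0.962 in IVF-chow, 2.61, 3.99 and 3.27 in FET-chow and 1.09, 3.81 and 3.71 in NC-chow, and the log2 fold change was 1.35 and 1.34 scaled (limma, Benjamini-Hochberg adjusted p = 1.0 and 0.327).

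The unfolded protein response had the lowest median of the 28 gene lists on both scales. Of 25 tested members, 23 had a negative log2 fold change as deposited and 24 after scaling, where 36.6% and 43.6% of all genes were positive, and the median was -0.78 as deposited and -0.62 scaled. Over the alternatives, the list median ranged from -1.56 to -0.32. No member passed the adjusted threshold in limma. At an unadjusted p under 0.05, 6 were lower as deposited (2.88% of all genes) and 8 after scaling (6.32% of all genes), and none was higher. After scaling, 7 of the 25 were apart and lower (8.06% of all genes) and none was apart and higher, while as deposited 2 were apart and lower (1.88% of all genes). The list average of log2(scaled FPKM + 1) was 3.06, 2.86 and 3.19 in IVF-chow, 1.89, 2.39 and 2.19 in FET-chow and 3.36, 2.61 and 2.63 in NC-chow. Every FET-chow mouse lay below every IVF-chow and NC-chow mouse. On the deposited scale the same averages were 2.10, 3.19 and 4.22 in IVF-chow and 2.12, 2.77 and 1.70 in FET-chow, and there IVF-chow mouse 2 lay within the FET-chow range.

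**Figure D2:**
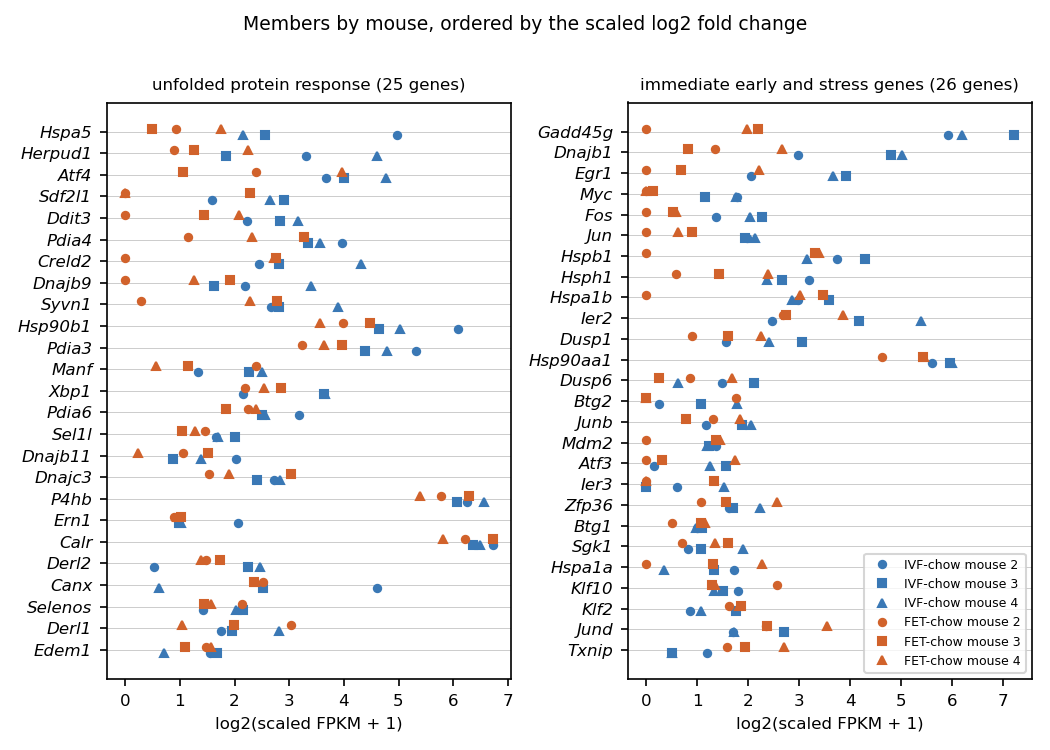
The members of the unfolded protein response list and of the immediate early and stress list, with log2(scaled FPKM + 1) on the horizontal axis and 1 gene per line, ordered by the scaled log2 fold change. Blue points are the 3 IVF-chow mice and orange points the 3 FET-chow mice. Hspa5 and Gadd45g, at the top of the panels, have all orange points to the left of all blue points, and Txnip, at the bottom of the right panel, has them to the right.

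Hspa5 encodes BiP, the main ER chaperone and the sensor that holds the stress receptors inactive. It had 12.3, 6.51 and 7.84 FPKM in IVF-chow, 1.19, 0.580 and 1.39 in FET-chow and 10.8, 16.2 and 7.58 in NC-chow. Every FET-chow value lay below every IVF-chow and NC-chow value on the deposited scale. The log2 fold change was -2.25 ± 0.75 and -2.17 scaled, which did not pass the threshold (limma, Benjamini-Hochberg adjusted p = 0.607 and 0.366). Herpud1, a membrane protein of ER-associated degradation, had 3.62, 3.43 and 53.4 FPKM in IVF-chow and 1.11, 1.96 and 2.21 in FET-chow, apart as deposited but not after scaling. Ddit3, the CHOP factor of prolonged ER stress, had 1.49, 8.08 and 18.3 and 0, 2.45 and 1.91 FPKM, apart only after scaling. Atf4, the factor upstream of CHOP, had 4.8, 20.0 and 60.1 and 5.54, 1.53 and 8.57 FPKM, and FET-chow mice 2 and 4 lay within the IVF-chow range. The disulfide isomerases Pdia3 (-1.22), Pdia4 (-1.38) and Pdia6 (-0.58), the chaperone Hsp90b1 (-1.25) and Sel1l (-0.53), a subunit of the ER degradation ligase, were the other members apart after scaling, with the scaled log2 fold changes in brackets. Edem1, which steers misfolded glycoproteins to degradation, was the only member with a positive scaled log2 fold change.

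Promoters of ER chaperone genes are known for the ER stress response element ERSE, which is CCAAT and CCACG with 9 bases of any kind between them, and for ERSE-II, which is ATTGG and CCACG with 1 base between them, through which ATF6 and XBP1 act. Both were searched on both strands of the 300-base promoter windows of RefSeq (GRCm38.p6), from 250 bases before to 50 bases after the start of transcription. ERSE was found for 37 of 27025 genes (0.137%) and for 8 of the 23 tested members with a promoter in the set (34.8%), namely Calr, Canx, Creld2, Dnajc3, Hsp90b1, Hspa5, Pdia6 and Syvn1. ERSE-II was found for 12 genes (0.0444%) and for 2 of the 23 (8.7%), Dnajb11 and Herpud1, so no member held both. The 250 bases before the start of Hspa5 (chr2:34771840-34772089, plus strand), Hsp90b1 (chr10:86705445-86705694, minus strand), Pdia6 (chr12:17266339-17266588, plus strand) and Herpud1 (chr8:94386179-94386428, plus strand) are shown because these members were apart between the groups on at least 1 scale and hold a match. They read along the strand of the gene, with the matches in capitals. In Hsp90b1 the first match is on the strand of the gene and the second on the opposite strand.
Hspa5: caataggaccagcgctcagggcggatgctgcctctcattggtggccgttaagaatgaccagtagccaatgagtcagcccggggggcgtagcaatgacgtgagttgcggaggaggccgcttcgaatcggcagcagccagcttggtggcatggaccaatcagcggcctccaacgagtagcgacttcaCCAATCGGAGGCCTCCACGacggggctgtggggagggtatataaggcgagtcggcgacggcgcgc
Hsp90b1: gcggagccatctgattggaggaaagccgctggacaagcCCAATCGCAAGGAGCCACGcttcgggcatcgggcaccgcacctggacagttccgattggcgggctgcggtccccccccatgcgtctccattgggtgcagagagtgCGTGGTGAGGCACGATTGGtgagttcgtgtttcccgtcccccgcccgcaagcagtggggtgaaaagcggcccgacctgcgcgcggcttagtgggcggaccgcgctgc
Pdia6: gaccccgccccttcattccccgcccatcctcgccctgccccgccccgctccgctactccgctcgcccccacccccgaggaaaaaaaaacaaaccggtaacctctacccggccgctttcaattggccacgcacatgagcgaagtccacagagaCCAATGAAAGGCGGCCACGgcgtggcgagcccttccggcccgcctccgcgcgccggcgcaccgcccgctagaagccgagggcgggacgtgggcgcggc
Herpud1: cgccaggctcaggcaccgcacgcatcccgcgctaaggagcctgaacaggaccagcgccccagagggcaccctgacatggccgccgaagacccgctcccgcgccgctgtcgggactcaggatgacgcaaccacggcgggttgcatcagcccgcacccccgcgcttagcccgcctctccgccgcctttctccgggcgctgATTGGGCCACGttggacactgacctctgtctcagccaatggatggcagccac
The match begins 65 bases before the start in Hspa5, 212 and 107 bases before it in Hsp90b1, 98 bases in Pdia6 and 52 bases in Herpud1. The 10 members with a match to either motif had a median log2 fold change of -0.97 as deposited and -0.92 scaled, and 3 of them were apart and lower after scaling (8.06% of all genes). The 13 without a match had medians of -0.78 and -0.62, and 4 of them were apart and lower. A match says only that these letters are in the window.

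The genes that rose were short RNAs and a pseudogene. Gm47287 and Gm47305 are annotated as miRNA genes of 70 bases that lie inside Rn7s1 and Rn7s2 on chromosome 12, the RNA of the signal recognition particle (7SL RNA), which guides secreted proteins to the ER. Gm47287 had 0.333, 1428 and 0.774 FPKM in IVF-chow, 4321, 2109 and 1718 in FET-chow and 2306, 0.249 and 0.209 in NC-chow. The 3 FET-chow mice lay above the IVF-chow mice, but IVF-chow mouse 3 and NC-chow mouse 1 were also high while the others were near 0. The log2 fold change was 7.38 ± 1.54 (limma, Benjamini-Hochberg adjusted p = 0.00968) and 7.46 scaled (adjusted p = 0.494, 1.27e-10 to 1.0 over the alternatives). Gm47305 had nearly the same values, at 0.329, 1347 and 0.759 FPKM in IVF-chow and 4129, 1723 and 1705 in FET-chow. Rn7s1 itself had 2278, 740.4 and 1066 FPKM in IVF-chow and 1572, 1179 and 828 in FET-chow, which overlapped. Rn7s1 and Rn7s2 have 0 differing bases over 300, and the 70 bases of Gm47287 also occur in Gm47305, Gm47304 and Rn7s6. The values of these entries are uncertain, since reads from this stretch match several of them.

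Gm23386, a small Cajal body RNA gene on chromosome 11, was listed at 0 in all NC-chow mice and in IVF-chow mice 2 and 4, with 0.874 FPKM in IVF-chow mouse 3 and 14.4, 8.92 and 6.18 in FET-chow. Its log2 fold change was 3.07 ± 0.62 (limma, Benjamini-Hochberg adjusted p = 0.00773) and 3.09 scaled (adjusted p = 0.00864), and it passed in 10 of 22 alternatives, with adjusted p-values from 0.00439 to 0.574. Such RNAs guide the modification of spliceosomal RNA. Gm23732, a U6-like small nuclear RNA gene on chromosome 12, had 0, 0 and 1.45 FPKM in IVF-chow, 14.3, 22.7 and 10.7 in FET-chow and 16.4, 0 and 0 in NC-chow, so NC-chow mouse 1 lay within the FET-chow range (3.59, adjusted p = 0.00773, scaled adjusted p = 0.248, 0.000263 to 1.0 over the alternatives, in limma with Benjamini-Hochberg adjustment). Gm23386 (chr11:19693155-19693298, minus strand, GRCm38, annotation GENCODE vM21) is shown because it was the short RNA gene that passed on both scales, with no part in capitals.
Gm23386: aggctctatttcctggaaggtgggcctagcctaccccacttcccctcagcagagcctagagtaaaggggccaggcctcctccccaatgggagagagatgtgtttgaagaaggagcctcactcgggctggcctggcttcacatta
The sequence of Gm23732 is identical to 3 other annotated genes, Gm25173, Gm25211 and Gm26324, which were listed at 0 in all 9 mice. Gm22442, another small Cajal body RNA gene of the same length as Gm23386, had 8.13, 9.22 and 13.7 FPKM in IVF-chow and 0, 26.5 and 29.0 in FET-chow, with FET-chow mouse 2 below and mice 3 and 4 above the IVF-chow mice. Gm14861, a processed pseudogene on chromosome X, was listed at 0 in all IVF-chow mice and had 8.28, 8.03 and 3.05 FPKM in FET-chow (adjusted p = 0.0204 and 0.00864 scaled, 0.00494 to 0.574 over the alternatives, limma with Benjamini-Hochberg adjustment). It was the only tested gene at 0 in all IVF-chow and above 0 in all FET-chow mice, where 30 genes showed the reverse.

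Ugt1a9 and Ugt1a7c encode glucuronosyltransferases, which couple bilirubin, steroids and drugs to glucuronic acid for excretion. They use alternative first exons of a single locus on chromosome 1 (Ugt1a9 at chr1:88070800-88218997, Ugt1a7c at chr1:88095062-88220002, GRCm38) and share their later exons. Ugt1a9 had 12.7, 12.7 and 47.5 FPKM in IVF-chow, was listed at 0 in all FET-chow mice, and had 28.2, 43.1 and 0 FPKM in NC-chow (limma, Benjamini-Hochberg adjusted p = 0.00535, scaled 0.257, 8.33e-05 to 1.0 over the alternatives). Ugt1a7c had 2.40, 13.8 and 21.4 FPKM in IVF-chow and 0.0639, 0.510 and 0 in FET-chow (-3.15 ± 0.70, limma, Benjamini-Hochberg adjusted p = 0.0170, scaled 0.160, 0.00439 to 1.0 over the alternatives). Other genes of the locus went the other way in single FET-chow mice, with 31.5 FPKM of Ugt1a10 in FET-chow mouse 2 and 18.5 and 13 of Ugt1a1, the bilirubin-conjugating form, in mice 3 and 4. Summed over the 9 genes of the locus, FPKM were 23.5, 35.5 and 69.0 in IVF-chow and 31.9, 28.7 and 13.3 in FET-chow, which overlapped. After scaling the sums were 57.9, 26.8 and 30.2 in IVF-chow and 24.6, 20.2 and 22.7 in FET-chow, where every FET-chow mouse lay below every IVF-chow mouse. The log2 difference was -0.72 as deposited and -0.66 scaled. How fragments of the shared exons were divided among the genes was not tested.

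Across the list of conjugating enzymes, 41 genes were tested, only these 2 passed, and 7 were apart and lower after scaling (8.06% of all genes), with a median of -0.44 as deposited and -0.34 scaled. Gsta1, a glutathione transferase, had 0.235, 4.12 and 2.87 FPKM in IVF-chow and was listed at 0 in FET-chow. Ugt2a3 had 9.98, 24.1 and 72.9 FPKM in IVF-chow and 11.8, 15.2 and 6.93 in FET-chow, and its groups were apart only after scaling (-1.14). The pi-class glutathione transferases Gstp1 and Gstp2, which are abundant in male mouse liver, were 2 of the 3 members apart and higher after scaling, a share near the 4.66% of all genes. Gstp2 had 38.4, 102 and 132 FPKM in IVF-chow and 133, 147 and 197 in FET-chow (0.95 and 1.01).

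Of 33 tested cytochrome P450 and reductase genes, none passed the adjusted threshold in limma, 3 were lower at an unadjusted p under 0.05 as deposited (2.88% of all genes), and the median was -0.51 as deposited and -0.47 scaled. After scaling, 8 were apart and lower (8.06% of all genes) and 1, Cyp2d40, was apart and higher (4.66%). Cyp2a5, which hydroxylates coumarin and nicotine and is raised in stressed liver, had 96.7, 207 and 1073 FPKM in IVF-chow and 130.0, 22.2 and 31.7 in FET-chow (-2.59 and -2.53, limma, Benjamini-Hochberg adjusted p = 1.0 and 0.289). FET-chow mouse 2 lay within the deposited IVF-chow range, and no mouse did after scaling. Cyp2j5, an arachidonic acid epoxygenase, had 13.9, 15.1 and 30.1 FPKM in IVF-chow and 4.13, 11.6 and 3.53 in FET-chow, apart on both scales. Cyp2c39 had 0.132, 0.977 and 10.2 FPKM in IVF-chow and 0 in FET-chow mice 2, 3 and 4.

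The remaining genes that fell were Tmem254b, Sssca1, Gm22758 and Gm27216. Tmem254b, a predicted membrane protein on chromosome 14 (chr14:26203369-26207041), had 1.98, 11.2 and 11.1 FPKM in IVF-chow and 6.59, 13.1 and 21.6 in NC-chow, and was listed at 0 in all FET-chow mice (limma, Benjamini-Hochberg adjusted p = 0.0494, scaled 0.00986, 0.00887 to 1.0 over the alternatives). Its near-identical neighbours Tmem254a and Tmem254c were also at 0 in all FET-chow mice. The 3 genes together had 4.74, 26.7 and 11.1 FPKM in IVF-chow, and 11.7, 20.2 and 4.87 after scaling. One fragment of Tmem254b was worth 0.183 to 0.265 FPKM in FET-chow. Sssca1, an autoantigen of scleroderma and Sjogren's syndrome, has 2 overlapping entries on chromosome 19. The entry that passed (ENSMUSG00000079478) had 1.94, 12.1 and 9.85 FPKM in IVF-chow and 0 in each FET-chow mouse (limma, Benjamini-Hochberg adjusted p = 0.0170, scaled 0.0175, 0.0119 to 1.0 over the alternatives), while the other (ENSMUSG00000118125) had 0.287, 0.00517 and 4.21 in IVF-chow and 5.80, 6.65 and 0.548 in FET-chow. Their sums of 2.23, 12.1 and 14.1 FPKM in IVF-chow and 5.80, 6.65 and 0.548 in FET-chow overlapped as deposited, and the scaled sums of 5.49, 9.13 and 6.15 and 4.47, 4.69 and 0.932 were apart and lower in FET-chow. Gm27216, a long noncoding RNA on chromosome 9, had 2.90, 6.28 and 11.5 FPKM in IVF-chow, 12.1, 11 and 9.49 in NC-chow and 0 in FET-chow (limma, Benjamini-Hochberg adjusted p = 0.0494, scaled 0.00986, 0.00887 to 1.0 over the alternatives). Gm22758, annotated as a miRNA inside the pseudogene Gm14173, had 3.01, 25.6 and 8.26 FPKM in IVF-chow and 0, 0.697 and 0.523 in FET-chow (limma, Benjamini-Hochberg adjusted p = 0.0334, scaled 0.117, 0.0262 to 1.0 over the alternatives), while Gm14173 had 0.324, 5.04 and 0.866 in IVF-chow and 0, 5.06 and 7.65 in FET-chow. Zswim7, a protein of DNA repair by recombination, passed after scaling (limma, Benjamini-Hochberg adjusted p = 0.0170) but not as deposited (0.162, or 0.0475 without IVF-chow mouse 2; 0.0170 to 1.0 over the alternatives), with 1.15, 5.56 and 8.56 FPKM in IVF-chow and 0 in all FET-chow mice.

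Without reference to a p-value, the groups were apart on both scales for 22 protein-coding genes that were higher in FET-chow (0.417% of protein-coding genes tested) and 73 that were lower (1.38%). The 10 in each direction with the largest difference, taken as the smaller of the deposited and the scaled log2 fold change, were named. Those lower in FET-chow were Gadd45g, Ugt1a9, Ugt1a7c, Tmem254b, Sssca1, Plk3, Got1, Apob, Zswim7 and Hspa5. Those higher were Tmem259, Angptl8, Map2k3, Mup16, Taf13, Slc26a10, Mapre3, Lias, Abcg8 and Ctdnep1, none of which passed the adjusted threshold on either scale.

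Tmem259 encodes membralin, an ER membrane protein of protein degradation. It had 4.91, 0.764 and 0.449 FPKM in IVF-chow, 45.0, 37.4 and 7.50 in FET-chow and 21.2, 12.3 and 15.8 in NC-chow (3.32 ± 0.86 and 3.03 scaled, limma, Benjamini-Hochberg adjusted p = 0.111 and 0.302). As deposited, every NC-chow mouse lay above every IVF-chow mouse and within the FET-chow range, but after scaling 2 NC-chow mice lay below IVF-chow mouse 2. Map2k3, the kinase that activates p38, had 0.360, 0.541 and 0.903 FPKM in IVF-chow, 25.9, 1.94 and 3.61 in FET-chow and 10.7, 6.11 and 5.56 in NC-chow. Lias, which makes the lipoic acid needed by mitochondrial dehydrogenases, had 0.818, 0.551 and 0.788 FPKM in IVF-chow, 6.27, 9.14 and 1.51 in FET-chow and 3.11, 1.86 and 2.19 in NC-chow. For Map2k3 and Lias every NC-chow mouse was also above every IVF-chow mouse as deposited. After scaling this held for Map2k3. For Lias, the scaled values of NC-chow mice 5 and 6 (1.19 and 1.21) lay below that of IVF-chow mouse 2 (2.02). Taf13, a subunit of the general transcription factor TFIID, had 0.169, 0.470 and 0.178 FPKM in IVF-chow and 2.56, 4.06 and 2.85 in FET-chow. Its scaled FET-chow values were 1.98, 2.86 and 4.84. Mapre3, a microtubule end-binding protein, had 0.407, 0.485 and 0.680 and 7.55, 5.28 and 1.20 FPKM. Ctdnep1, the nuclear envelope phosphatase that activates lipin, had 0.551, 1.71 and 1.88 and 13.8, 4.13 and 2.22 FPKM. Slc26a10, of the anion exchanger family, had 0.394, 0 and 0.512 and 5.73, 3.68 and 1.75 FPKM. The deposited log2 fold changes of these 6 genes were between 1.45 for Ctdnep1 and 2.17 for Map2k3.

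**Figure D3:**
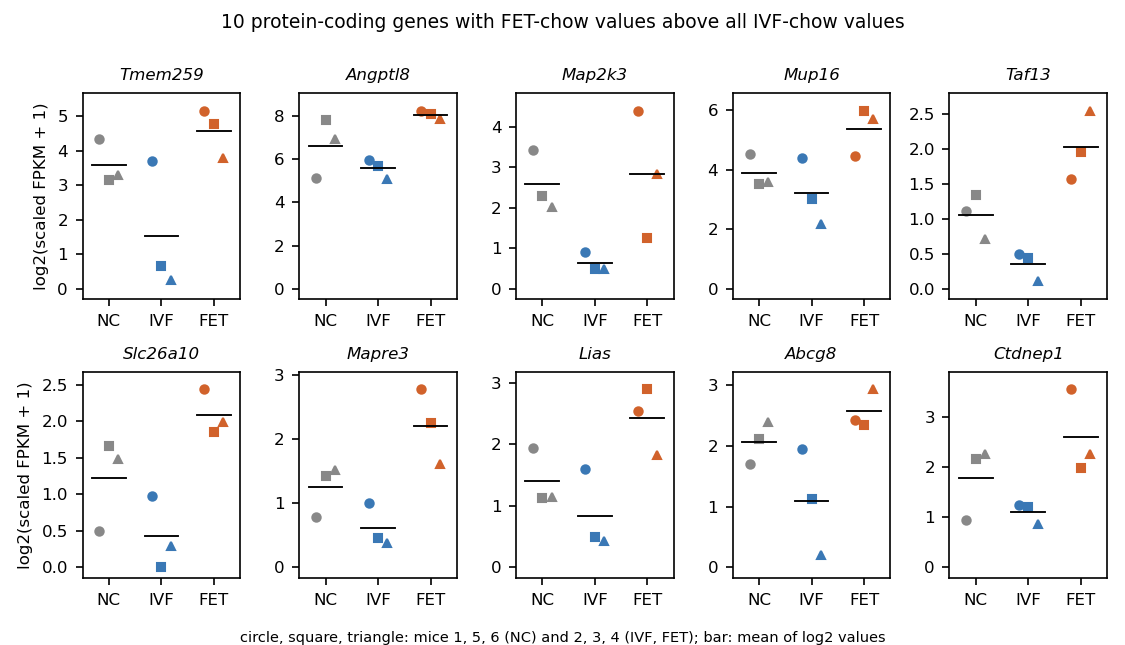
The 10 protein-coding genes with the largest positive difference on the smaller of both scales among those whose groups did not overlap, with log2(scaled FPKM + 1) on the vertical axis of each panel and the 3 groups on the horizontal axis. Each point is 1 mouse and the bar is the mean of the group. All 3 FET-chow mice lie above all 3 IVF-chow mice in each panel, by construction. The 3 NC-chow mice of Taf13 lie between the groups, those of Map2k3 lie within the FET-chow range, and those of the other genes are spread over the ranges of both groups or the gap between them.

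Of 16 tested apolipoprotein list members, 2 were apart and lower and 1 apart and higher after scaling, near the 8.06% and 4.66% of all genes, and 1 was apart and lower as deposited (1.88% of all genes). Apob, the structural protein of very low density lipoprotein, had 33.4, 62.1 and 72.2 FPKM in IVF-chow, 5.11, 33.3 and 2.62 in FET-chow and 26.1, 29.5 and 34.8 in NC-chow. FET-chow mice 2 and 4 were far below the other mice, and FET-chow mouse 3 was close to IVF-chow mouse 2 on the deposited scale. The log2 fold change was -2.57 ± 1.0 and -2.54 scaled, and it did not pass (limma, Benjamini-Hochberg adjusted p = 0.979 and 0.239). Angptl8, a feeding- and insulin-induced liver hormone that restrains lipoprotein lipase, had 25.0, 66.7 and 76.2 FPKM in IVF-chow, 391, 387 and 135 in FET-chow and 37.2, 353 and 216 in NC-chow. Every FET-chow mouse lay above every IVF-chow mouse on both scales (2.42 ± 1.12 and 2.48 scaled, limma, Benjamini-Hochberg adjusted p = 1.0 and 0.256). The NC-chow mice spanned both groups as deposited. After scaling, the NC-chow values of 33.9, 225 and 120 lay below the FET-chow values of 301, 273 and 230. Lipc, the hepatic lipase, had 7.26, 49.0 and 107 FPKM in IVF-chow and 175, 84.6 and 44.5 in FET-chow and was apart only after scaling (1.40). Apoa4, which is carried on chylomicrons and made by fatty liver, had 5.96, 54.0 and 139.8 and 9.60, 19.4 and 3.25 FPKM and was lower in all FET-chow mice after scaling (-1.89). The other 13 apolipoprotein list members overlapped after scaling, and the list median was -0.31 as deposited and -0.26 scaled.

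Of 19 tested bile acid genes, 3 were apart and higher after scaling (4.66% of all genes) and none was apart and lower. Abcg5 and Abcg8 form the paired transporter that exports cholesterol into bile, and neither passed the test in limma. Abcg8 had 1.16, 1.55 and 0.353 FPKM in IVF-chow and 5.66, 5.80 and 3.88 in FET-chow, apart on both scales (1.63 and 1.47). Abcg5 had 1.29, 1.83 and 5.79 and 4.82, 4.73 and 2.21 FPKM, apart only after scaling (0.49). Cyp7a1, the rate-limiting enzyme of bile acid synthesis, had 4.23, 3.45 and 11.2 FPKM in IVF-chow and 5.18, 0.681 and 0.124 in FET-chow, with mice 3 and 4 below and mouse 2 within the IVF-chow range. The median of the 19 tested bile acid genes was -0.25 as deposited and -0.18 scaled, close to that of all genes.

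The 21 tested genes of cholesterol synthesis and uptake had a median of -0.61 as deposited and -0.59 scaled, and 5 of them were apart and lower after scaling (8.06% of all genes). The list average of log2(scaled FPKM + 1) was 2.25, 1.93 and 2.31 in IVF-chow, 1.74, 2.09 and 1.36 in FET-chow and 2.17, 2.67 and 2.54 in NC-chow. FET-chow mouse 3 lay between the IVF-chow mice, and FET-chow mice 2 and 4 lay below them. Cyp51, the lanosterol demethylase, had 2.05, 2.70 and 5.49 FPKM in IVF-chow and 0, 1.69 and 0.471 in FET-chow and was the only member apart on both scales (-1.40 and -1.33). Nsdhl, an enzyme of the demethylation of sterols, had 1.41, 2.38 and 6.74 FPKM in IVF-chow and 1.41, 1.52 and 0 in FET-chow. The log2 fold change was positive for 3 of the 21 as deposited and 4 after scaling (36.6% and 43.6% of all genes). Hmgcs1 was among the positive ones (1.45 and 1.41). It had 3.21, 0.145 and 25.5 FPKM in IVF-chow and 18.8, 30.1 and 3.23 in FET-chow, which overlapped. None of the 21 passed the adjusted threshold in limma, and 1 was lower at an unadjusted p under 0.05 as deposited (2.88% of all genes).

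Of 25 tested genes of fatty acid and triglyceride synthesis, none passed in limma, 1 was lower at an unadjusted p under 0.05 as deposited (2.88% of all genes), and 5 were apart and lower after scaling (8.06%), with a median of -0.60 as deposited and -0.33 scaled. Plin5, the lipid droplet protein that ties droplets to mitochondria, had 0.601, 3.74 and 4.33 FPKM in IVF-chow and was listed at 0 in all FET-chow mice, where 1 fragment was worth 0.164 to 0.237 FPKM. Lpin1, a phosphatidate phosphatase and coactivator, had 1.73, 1.88 and 4.56 FPKM in IVF-chow and 1.49, 0.341 and 0.328 in FET-chow, apart on both scales (-1.10 and -1.07). The elongase Elovl5 (-1.40) and the desaturases Fads1 (-1.12) and Fads2 (-0.63), which lengthen and unsaturate polyunsaturated fatty acids, were the other members apart and lower after scaling, with the scaled log2 fold changes in brackets. Of 30 genes of fatty acid oxidation and ketogenesis, Cyp4a10 (-1.89) and Slc27a5 (-1.14) were apart and lower and 1 member was apart and higher after scaling, shares below the 8.06% and 4.66% of all genes, and the median was -0.36 as deposited and -0.30 scaled.

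The glucocorticoid and growth hormone list held 18 tested genes, with a median of -0.53 as deposited and -0.46 scaled and 5 members apart and lower after scaling (8.06% of all genes). None passed in limma, and 4 were lower at an unadjusted p under 0.05 both as deposited (2.88% of all genes) and scaled (6.32%). Averaged over the list, the log2(scaled FPKM + 1) was 2.37, 2.81 and 3.03 in IVF-chow, 1.94, 2.13 and 1.96 in FET-chow and 2.84, 2.48 and 2.47 in NC-chow. On this scale all FET-chow mice lay below all IVF-chow and NC-chow mice. As deposited, the averages were 1.53, 3.13 and 4.05 in IVF-chow and 2.16, 2.46 and 1.55 in FET-chow, and IVF-chow mouse 2 lay below every FET-chow mouse. Socs2, a feedback inhibitor of the growth hormone receptor, had 0.551, 11.9 and 17.7 FPKM in IVF-chow, 0.467, 0.337 and 0.479 in FET-chow and 0.882, 0.229 and 0.0796 in NC-chow. IVF-chow mice 3 and 4 stood above all others, while IVF-chow mouse 2 was close to the FET-chow mice as deposited. Cish, a related feedback inhibitor, had 0.497, 1.65 and 10.2 FPKM in IVF-chow and 0.235, 0.547 and 0 in FET-chow. Igfbp1, an insulin-repressed binding protein of the insulin-like growth factors, had 0.807, 3.41 and 14.6 FPKM in IVF-chow and 3.99, 4.29 and 2.26 in NC-chow and was listed at 0 in all FET-chow mice. It did not pass (limma, Benjamini-Hochberg adjusted p = 0.205 and 0.136 scaled).

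Major urinary proteins, pheromone carriers that male mouse liver secretes under pulsatile growth hormone, had one of the highest list medians, 0.67 as deposited and 0.73 scaled over 19 tested genes. None passed the adjusted threshold in limma. At an unadjusted limma p under 0.05, 5 were higher as deposited (1.13% of all genes) and 4 after scaling (2.92%), and none was lower. The log2 fold change was positive for 13 of the 19 as deposited and for 12 after scaling (36.6% and 43.6% of all genes). Mup16 had 8.22, 9.36 and 8.16 FPKM in IVF-chow, 27.2, 88.7 and 29.9 in FET-chow and 24.3, 16.4 and 20.2 in NC-chow, apart on both scales (2.16 and 2.18). Mup11 had 32.9, 93.5 and 2.25 FPKM in IVF-chow and 89.4, 483 and 157 in FET-chow, which overlapped. Mup17 had 89.4, 90.4 and 161 and 117, 1461 and 447 FPKM, with FET-chow mouse 2 within the IVF-chow range. Summed over the 22 genes in the table, FPKM were 824, 2447 and 2361 in IVF-chow and 1774, 4311 and 1639 in FET-chow, which overlapped as well, as did the scaled sums of 2032, 1848 and 1033 and 1367, 3039 and 2787. The genes of this cluster are near copies of each other, and their single values are uncertain where shared fragments were divided.

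**Figure D4:**
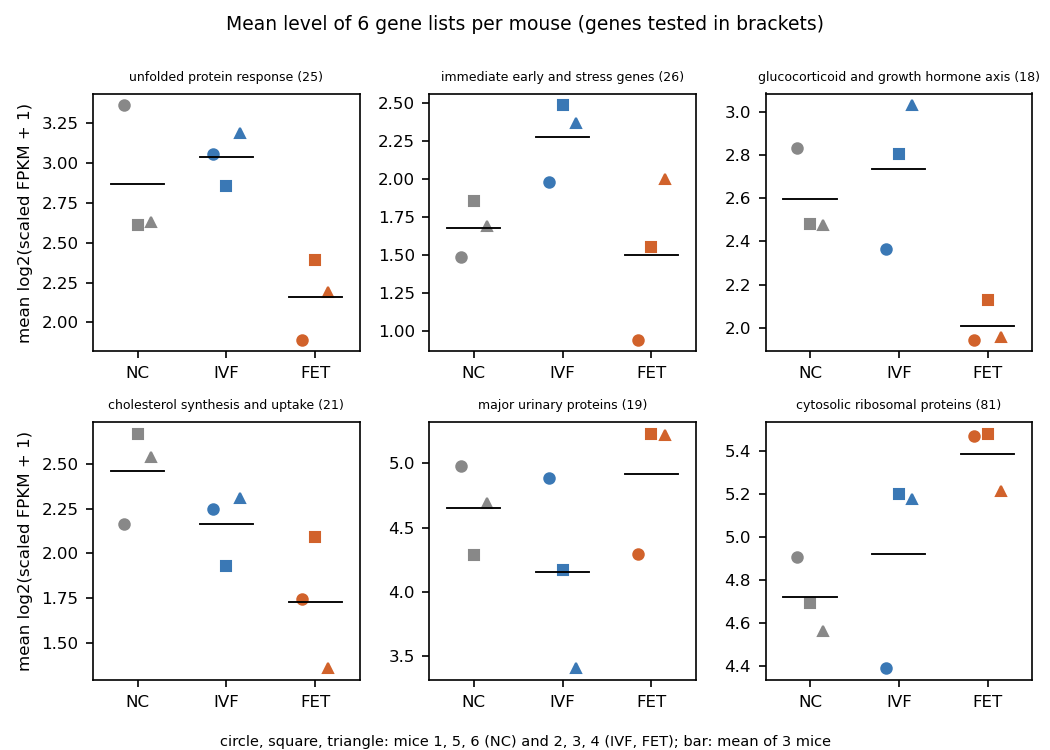
The mean log2(scaled FPKM + 1) over the tested members of 6 gene lists on the vertical axis of each panel, with the 3 groups on the horizontal axis. Each point is 1 mouse and the bar is the mean of 3 mice. For the unfolded protein response and the glucocorticoid and growth hormone axis all FET-chow mice lie below all IVF-chow mice, for cytosolic ribosomal proteins they lie above them, and in the other 3 panels the groups overlap.

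Among 32 tested plasma and acute phase proteins, the median was -0.44 as deposited and -0.38 scaled and 7 were apart and lower after scaling (8.06% of all genes), where none was apart as deposited. Hamp, the hormone hepcidin that limits iron export, had 383, 1943 and 3595 FPKM in IVF-chow and 553, 858 and 257 in FET-chow (-1.48 and -1.42). Rbp4, the carrier of retinol, had 73.5, 273 and 568 and 119, 197 and 61.1 FPKM (-0.93 scaled). On the deposited scale both overlapped. Serpina1e, an antitrypsin copy, had 241, 39.6 and 1.89 FPKM in IVF-chow and 219, 1048 and 1025 in FET-chow, with FET-chow mouse 2 within the IVF-chow range. Of the 40 tested complement and coagulation genes, 6 were apart and lower after scaling (8.06% of all genes), with the fibrinogen chains Fgg and Fgb the lowest (list median -0.51 as deposited and -0.45 scaled). Fgg had 101, 198 and 188 FPKM in IVF-chow and 36.3, 81.0 and 30.4 in FET-chow, apart on both scales (-1.77 and -1.71). Fgb had 50.8, 171 and 232 and 36.9, 109 and 38.0 FPKM, apart only after scaling (-1.16). None of these genes passed in limma, and as deposited 1 member of each list had an unadjusted p under 0.05, on the higher side for Serpina1e (1.13% of all genes) and on the lower side for the complement and coagulation list (2.88%).

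Of 40 tested genes of the urea cycle and amino acid breakdown, 7 were apart and lower (8.06% of all genes) and 2 apart and higher (4.66%) after scaling, and the median was -0.23 as deposited and -0.18 scaled. Cps1, the first enzyme of the urea cycle, had 24.5, 22.0 and 43.4 FPKM in IVF-chow and 15, 15.7 and 7.60 in FET-chow, apart on both scales (-1.17 and -1.12). Bhmt, which remethylates homocysteine with betaine, had 38.3, 187 and 600.4 and 119.9, 40.9 and 11.9 FPKM, apart after scaling (-1.97). Oat, the ornithine aminotransferase, had 24.9, 85.5 and 284 and 59.6, 41.3 and 10.6 FPKM and Ahcy, which clears S-adenosylhomocysteine, had 38.2, 171 and 323 and 108, 102 and 34.2. In the glucose lists, no gene passed in limma, and none was apart and higher on either scale. For gluconeogenesis and glycogen, 2 of 20 were apart and lower as deposited (1.88% of all genes) and 4 after scaling (8.06%). After scaling, 3 of 20 genes of glycolysis and fructose use and 1 of 13 of insulin signalling were apart and lower, and none as deposited. G6pc3 had 0.532, 1.76 and 4.11 FPKM in IVF-chow and 0, 0.325 and 0 in FET-chow, apart on both scales. Got1, the cytosolic aspartate aminotransferase, had 1.68, 9.52 and 16.4 FPKM in IVF-chow and 0, 0.710 and 0 in FET-chow, apart on both scales, and it lay with 2.6, 20.8 and 21.8 FPKM in NC-chow above FET-chow as well. Pygl, the liver glycogen phosphorylase, had 2.94, 6.78 and 16.8 and 4.10, 5.04 and 2.71 FPKM, apart only after scaling (-0.66). The medians were -0.36 as deposited and -0.25 scaled for 20 genes of gluconeogenesis and glycogen, -0.26 as deposited and -0.19 scaled for 20 of glycolysis and fructose use, and -0.15 as deposited and -0.039 scaled for 13 of insulin signalling.

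Cytosolic ribosomal protein genes, unlike most lists, had higher values in FET-chow. Of 81 tested, 77 had a positive log2 fold change as deposited and 78 after scaling, against 36.6% and 43.6% of all genes, with a median of 0.38 as deposited and 0.46 scaled. None was apart on the deposited scale, and 15 were apart and higher after scaling, where 4.66% of all genes were. The list average of log2(scaled FPKM + 1) was 4.39, 5.2 and 5.18 in IVF-chow, 5.47, 5.48 and 5.21 in FET-chow and 4.91, 4.70 and 4.57 in NC-chow. IVF-chow mouse 2 lay far below the other IVF-chow mice, and FET-chow mouse 4 lay close to IVF-chow mice 3 and 4. Rplp0, the stalk protein, had 6.94, 41.3 and 48.1 FPKM in IVF-chow and 77.4, 68.3 and 22.1 in FET-chow (0.98 and 1.05). None passed in limma on either scale, and none had an unadjusted p under 0.05 as deposited. Without IVF-chow mouse 2 the list median was -0.48 as deposited and 0.26 scaled. The library of IVF-chow mouse 2 also had the highest ribosomal RNA-like share, and the part of that share in these values was not tested.

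The 13 protein-coding genes of the mitochondrial genome had the highest median, 0.72 as deposited and 0.78 scaled, and all 13 were positive on both scales, against 36.6% and 43.6% of all genes. The deposited median was -0.059 without IVF-chow mouse 2 and 0.46 without FET-chow mouse 4. The list average of log2(scaled FPKM + 1) was 13.16, 13.90 and 12.25 in IVF-chow and 12.93, 13.40 and 15.16 in FET-chow, so FET-chow mouse 4 was the highest and FET-chow mice 2 and 3 lay within the IVF-chow range. Their summed FPKM were 60569, 341766 and 191784 in IVF-chow and 189836, 261532 and 361518 in FET-chow, which overlapped on this scale and after scaling, and no member was apart between the groups. The 77 nuclear genes of oxidative phosphorylation did not share this direction, with a median of -0.27 as deposited and -0.20 scaled, close to that of all genes, and 4 apart and lower after scaling, a share below the 8.06% of all genes. Among them, Ndufa8, a subunit of complex I, had 12.9, 51.9 and 74.5 FPKM in IVF-chow and 8.18, 42.8 and 5.09 in FET-chow (-1.44). The median of the 37 proteasome subunits was -0.14 as deposited and -0.022 scaled, with 6 apart and lower after scaling (8.06% of all genes), whereas as deposited 1 was apart and higher (1.3% of all genes) and none lower. No gene of these 3 lists passed in limma, and none had an unadjusted p under 0.05 as deposited.

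**Figure D5:**
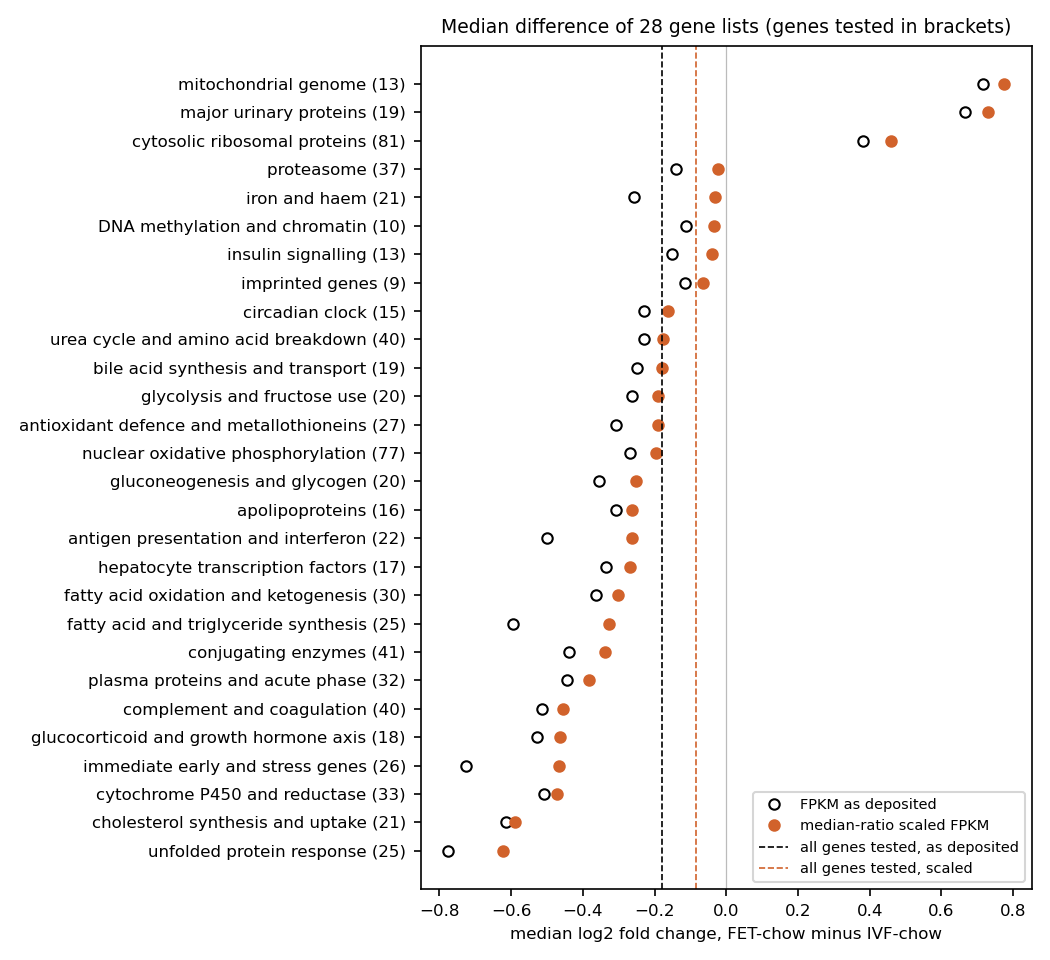
The median log2 fold change in FET-chow against IVF-chow of 28 gene lists on the horizontal axis, with 1 list per line and the number of genes tested in brackets. Open points are FPKM as deposited and filled points are scaled FPKM. The dashed lines are the medians of all 6378 genes. The unfolded protein response and cholesterol lists lie furthest to the left after scaling, and the mitochondrial genome, major urinary protein and cytosolic ribosomal protein lists are the only lists to the right of 0.

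Of 17 tested transcription factors of hepatocytes, 3 were apart and lower after scaling (8.06% of all genes) and none was apart and higher. As deposited, none was apart and lower and 1, Tbx3, was apart and higher (1.3% of all genes), with 0.592, 1.17 and 0.719 FPKM in IVF-chow and 2.42, 1.24 and 1.98 in FET-chow. Foxa2, a pioneer factor of hepatocytes, had 1.37, 6.19 and 8.63 FPKM in IVF-chow and 0.797, 2.29 and 0 in FET-chow, apart after scaling (-1.60). Hnf4a, the central hepatocyte factor, had 8.26, 27.0 and 39.7 and 15.5, 23.5 and 10.1 FPKM, apart after scaling by a smaller difference (-0.34). Nfil3, a clock output repressor that responds to feeding, had 0.584, 3.29 and 6.08 FPKM in IVF-chow and was listed at 0 in all FET-chow mice (limma, Benjamini-Hochberg adjusted p = 0.652 and 0.101 scaled). Of 15 tested clock genes, 2 were apart and lower after scaling (8.06% of all genes), Nfil3 among them, and the median was -0.23 as deposited and -0.16 scaled. In the antioxidant list (27 tested, -0.31 as deposited and -0.19 scaled), Keap1 (-1.17) and its target Nfe2l2 (-0.99), which encodes the factor NRF2, and the peroxiredoxins Prdx3 (-1.15) and Prdx6 (-0.58) were apart and lower after scaling, with the scaled log2 fold change in brackets, as 5 of the 27 were (8.06% of all genes). In the iron and haem list (21 tested, -0.26 as deposited and -0.032 scaled), 3 members were apart and lower after scaling (8.06% of all genes) and none as deposited. They were Hamp, Ireb2 and Slc39a14, a zinc and iron importer (-0.91 scaled).

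Genes of chromatin and imprinting were mostly too low to be tested. Of 28 genes of DNA methylation and chromatin, 10 were expressed enough to be tested, with a median of -0.11 as deposited and -0.033 scaled, and only Smarca4, the BRG1 motor of chromatin remodelling, was apart and lower after scaling (-0.56), a share near the 8.06% of all genes. Of 38 imprinted genes, 9 were tested, with a median of -0.12 as deposited and -0.065 scaled. Slc22a3, an organic cation transporter imprinted in the placenta, was the only one apart after scaling (8.06% of all genes were apart and lower), with 0.318, 2.28 and 5.80 FPKM in IVF-chow and 0, 0.158 and 0 in FET-chow. The 22 genes tested for antigen presentation and interferon had a median of -0.50 as deposited and -0.26 scaled. Of these, 1 had a positive log2 fold change as deposited and 4 after scaling, against 36.6% and 43.6% of all genes. None of the 22 was apart after scaling. None of the genes in these 3 lists passed in limma, and at an unadjusted p under 0.05 as deposited only Slc22a3 was lower (2.88% of all genes).

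The samples carried the markers of liver. Hepatocyte markers summed to 3199, 13173 and 29583 FPKM in IVF-chow and 9357, 14622 and 4166 in FET-chow, which overlapped, and all 5 were above 0 in every mouse. The erythroid markers Hba-a1, Hbb-bs and Alas2 summed to 148, 121 and 127 scaled FPKM in IVF-chow and 309.9, 298 and 218 in FET-chow, which did not overlap. On the deposited scale these sums were 60.0, 160.0 and 291 and 402, 423 and 128, which overlapped. Hba-a1 and Hbb-bs were apart and higher after scaling (4.66% of all genes), while Alas2 overlapped, with a scaled log2 fold change of -0.028. In NC-chow the scaled erythroid sums were 451, 161 and 204, so NC-chow mouse 1 lay above every FET-chow mouse. The higher scaled globin values accompanied the lower medians of most hepatocyte lists, and their part in them was not tested. In bulk RNA, fewer cells of a type and less RNA per cell cannot be told apart. Kupffer cell and macrophage markers summed to 9.77, 12.5 and 13.6 scaled FPKM in IVF-chow and 32, 14 and 10.5 in FET-chow, where FET-chow mouse 2 was the highest. Markers of T, B and NK cells summed to at most 0.372 scaled FPKM in any of the 6 mice. All 3 neutrophil markers were listed at 0 in every FET-chow mouse and in IVF-chow mouse 3, and the endothelial, stellate cell, cholangiocyte, adipocyte and pancreas lists overlapped between the groups.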

How the data were processed

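Liver RNA of 3 IVF-chow, 3 FET-chow and 3 NC-chow mice was analysed. Groups came from the sample labels, and diet and sex from the paper. The authors deposited FPKM per gene, after trimming and mapping to the genome. The submitters' processing notes name FastQC 0.11.5, STAR 2.5.3a, StringTie 1.3.1c and DESeq2 1.16.1, without their roles. The build and annotation are not given in the sources used here. Of 55335 identifiers, 55154 matched GENCODE vM21 (GRCm38), which gave symbols and positions. The table holds no counts, and depth was estimated from FPKM steps of up to 8 fragments with a tolerance of 2%. Such depths cover counting error only.

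FPKM were tested as log2(FPKM + 1) with limma 3.58.1 in R 4.3.3, with 3 group means over 9 mice, a variance trend on the mean, two-sided tests and Benjamini-Hochberg adjustment over 6378 genes. The procedure was tested on simulated log2 values, drawn independently from a normal distribution. The simulation had no differences between libraries in depth or make-up, so it cannot show how the calls behave under those found here. Median-ratio scaling used 5921 genes. Other tools were Python 3.11.15, pandas 2.3.3 and matplotlib 3.10.9. Named genes were all that passed, the 10 protein-coding genes per direction with the largest change (the smaller of both scales) among those apart on both scales, up to 4 members per list and the mRNAs and proteins the study measured. Any other gene was chosen with its values known. Some genes and sequences are not reported here. The members and lists were chosen with earlier results of these data known. Alternatives covered scaling, pseudocount, filters, the mice fitted, a replicate block and leaving out each mouse.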

Additional observations from a re-analysis of the deposited data

How the results depend on the processing

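Of 6378 genes, 12 passed, 5 higher and 7 lower. The count was 7 with median-ratio scaling, quantile normalization or scaling to nuclear protein-coding genes (2 higher and 5 lower with each), 4 with a pseudocount of 0.1, 0 with no filter (24176 genes, limma, 149 higher and 715 lower at an unadjusted p under 0.05), 5 at a mean FPKM of at least 10 (1256 genes), 6 with the filter over 9 mice, 5 with only the 6 mice in the fit and 9 with these and scaling. Leaving out each mouse in turn gave 0 to 13 genes. The other 3 settings were chosen after seeing the data. Scaling without IVF-chow mouse 2 gave 0 genes and scaling without FET-chow mouse 2 gave 7. Scaling without both, with the NC-chow mice also left out of the fit, gave 0. A replicate block for the mouse number was fitted only with the 6 mice, without NC-chow. Without the block, the 6 mice gave 5 genes as deposited and 9 after scaling. With the block, 0 genes passed in limma as deposited (32 higher and 77 lower at an unadjusted p under 0.05) and 0 after scaling (109 and 246). The residuals of same-numbered mice correlated at -0.12, 0.01 and -0.24 over all genes tested, and those of mice with different numbers at -0.12 to 0.26. These residuals were centred within each group and carry the differences between libraries, so they cannot decide whether the numbers pair the mice. The cause of the lower count was not tested.

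Of 3070 pairs of a named gene and an alternative, 2845 kept the direction and the side of the threshold, 178 lost the call, 7 gained it (5 for Zswim7, 1 for Serpina1e at a mean FPKM of at least 10 and 1 for Socs2 without IVF-chow mouse 2) and 40 reversed, in 17 of 137 genes, none of which had passed. For the 12 genes that had passed, these were 268 pairs, of which 90 kept the call and 178 lost it. Under quantile normalization the log2 fold change was 0.092 for Insr and 0.013 for Kmt2a, and under scaling to nuclear protein-coding genes 0.091 for Insr and 0.0092 for Slc2a2. With scaling and without IVF-chow mouse 2 it was 0.15 for Kmt2a and 0.45 for Slc2a2. With scaling and without FET-chow mouse 2 it was 0.22 for Pck1, -0.083 for Hdac3, 0.27 for Dcn and -0.16 for Cpt1a. With scaling, without both mice and with the NC-chow mice also left out of the fit, it was 0.58 for Pck1, -0.21 for Hdac3, 0.23 for Kmt2a, 0.20 for Dcn, -0.021 for Cpt1a and 0.13 for Slc2a2. Over the fits that left out 1 mouse, it ranged from -0.92 to 0.17 for Grb14, from -2.23 to 0.77 for Orm3 (0.58 where it first turned positive), from -0.47 to 1.39 for Ftl1, from -0.061 to 1.65 for Rps3a1, from -0.086 to 1.51 for Rpl41, from -0.068 to 1.63 for Rps27a, from -0.42 to 0.86 for Hdac3 (-0.034 at its smallest reversal), from -0.28 to 0.011 for Kmt2a, from -0.095 to 1.11 for Snrpn, from -1.10 to 0.018 for Dcn, from -1.30 to 0.35 for G6pc, from -0.13 to 0.79 for Akt1, from -0.73 to 0.35 for Insr (0.34 in another reversal), from -0.34 to 0.42 for Cpt1a (-0.025 at its smallest reversal), from -0.15 to 0.46 for Pik3ca (-0.024 at its smallest reversal) and from -0.72 to 0.23 for Slc2a2. The causes were not tested.

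Of 28 gene lists, 22 had a median that changed sign in at least 1 alternative. This happened in 11 lists with scaling to nuclear protein-coding genes, 3 with quantile normalization and 3 at a mean FPKM of at least 10. The median of the immediate early list was -1.68 at a mean FPKM of at least 10, which leaves fewer genes. The medians of the unfolded protein response, immediate early, cholesterol, glucocorticoid and growth hormone, and cytochrome P450 lists were negative and that of the major urinary proteins positive under every alternative run. The cytosolic ribosomal protein and mitochondrial lists reached -0.48 and -0.059 at their lowest. A mean under 1 FPKM in FET-chow and at least 1 in IVF-chow was found for 842 genes, against 439 the other way. The part of library depth in this was not tested.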
